A study of Rattus norvegicus with 6 samples.

Results

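The 7 genes described here encode small heat shock proteins, and they were taken from the deposited table by their symbols, Hspb1, Hspb2, Hspb3, Hspb6, Hspb7, Hspb8 and Cryab. All 7 were found among 28293 genes, and all 7 were among the 10942 genes that passed a filter on low values (a mean of at least 0.5 FPKM over the 6 samples). FPKM values are fragment counts corrected for gene length and library size, so levels can be set side by side between genes. RNA was sequenced from the myocardial tissue of 3 sham-operated male wild-type rats and 3 rats with ischemia/reperfusion (I/R), in which the left anterior descending coronary artery was tied for 30 min and released for 6 h. The sham rats carry these times in their labels too, neither age nor strain is given, and the region of the heart that was sampled is not stated. Hspb1 encodes Hsp27, the protein on which the study centred, and the question asked was whether its mRNA behaved differently from its relatives that are expressed in muscle.

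Small heat shock proteins are chaperones without ATPase activity that share an alpha-crystallin domain, assemble into oligomers and bind unfolding proteins until other chaperones refold them or they are degraded. Striated muscle holds an unusually large set of them, on filaments and at the Z-disc. HSPB1 and CRYAB (alpha-B crystallin) are expressed in many tissues and protect actin and desmin filaments, HSPB6 (Hsp20) is phosphorylated by protein kinase A, HSPB8 works with the co-chaperone BAG3, and HSPB2, HSPB3 and HSPB7 (cvHsp) are found mainly in heart and skeletal muscle.

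The sequence before the transcription start is shown for Hspb1, Hspb6, Hspb7 and Hspb8. That of Hspb3 was searched too but is not printed. The reason is that heat shock genes are classically driven through heat shock elements, repeats of GAA and its complement TTC bound by HSF1. Muscle genes are classically driven through sites of MEF2. The RefSeq promoter sequences used here (build GRCr8) covered 5 of the 7 genes, all but Hspb2 and Cryab. The 250 bases before the start lie at chr12:26432302-26432551 (minus strand) for Hspb1, chr1:94934122-94934371 (plus strand) for Hspb6, chr5:159010509-159010758 (plus strand) for Hspb7 and chr12:45837058-45837307 (plus strand) for Hspb8, written 5′ to 3′ with an inverted pair of heat shock units or a MEF2 site in capitals:
Hspb1: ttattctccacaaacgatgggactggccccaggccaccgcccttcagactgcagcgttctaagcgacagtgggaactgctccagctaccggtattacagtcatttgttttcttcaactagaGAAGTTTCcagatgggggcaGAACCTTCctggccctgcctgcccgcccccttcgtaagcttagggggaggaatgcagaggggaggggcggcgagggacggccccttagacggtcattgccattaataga
Hspb6: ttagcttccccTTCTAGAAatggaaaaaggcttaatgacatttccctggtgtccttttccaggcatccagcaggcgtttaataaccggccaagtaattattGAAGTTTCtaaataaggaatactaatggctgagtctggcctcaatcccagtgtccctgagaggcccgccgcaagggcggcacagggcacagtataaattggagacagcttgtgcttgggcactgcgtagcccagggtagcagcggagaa
Hspb7: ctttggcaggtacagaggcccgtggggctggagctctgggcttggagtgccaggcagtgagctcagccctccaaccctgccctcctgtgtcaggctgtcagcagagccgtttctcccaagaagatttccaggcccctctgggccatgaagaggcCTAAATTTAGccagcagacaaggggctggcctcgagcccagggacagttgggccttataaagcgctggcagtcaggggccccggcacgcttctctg
Hspb8: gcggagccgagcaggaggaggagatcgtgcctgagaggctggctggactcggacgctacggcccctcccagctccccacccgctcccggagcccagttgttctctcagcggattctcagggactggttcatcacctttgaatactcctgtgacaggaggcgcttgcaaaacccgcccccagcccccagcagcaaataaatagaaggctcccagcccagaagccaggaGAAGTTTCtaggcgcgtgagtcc
An inverted pair was searched as GAANNTTC or TTCNNGAA, which read the same on both strands. Hspb1 held 2 of them (GAAGTTTC at 129 to 122 bases and GAACCTTC at 109 to 102 bases before the start). Hspb6 also held 2, TTCTAGAA and a copy of GAAGTTTC, and Hspb8 held 1, again GAAGTTTC, at 23 to 16 bases before the start. Such a pair stood in 13.2% of 27457 RefSeq windows of the same length. A row of 3 units, the pair extended by 1 more unit at the same spacing, stood in 0.597% of windows and in none of the 5. The MEF2 site was matched in Hspb7 (CTAAATTTAG, 96 to 87 bases before the start) and in Hspb3 (CTATAAATAG, 51 to 42 bases, overlapping a TATAAA), against 0.572% of all windows. These are matches of letters, and no binding was measured.

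All 7 small heat shock protein genes were higher in I/R than in sham at an adjusted p under 0.05 (limma on log2(FPKM + 0.1), Benjamini-Hochberg over all genes tested). The same call was made for 25.5% of the 10942 genes. In a fit of only the 3784 genes with a mean of at least 5 FPKM, all 7 members among them, 1892 were called higher. The members lay between 2.16 and 3.32 in log2 fold change (median 2.18). The median was 0.29 over all genes tested and 0.66 over those with a mean of at least 5 FPKM. All 7 were also called with a log2 fold change over 1 required, as were 18.1% of genes, and with the replicate number as a block, as were 28.2%. Quantile normalization lowered the log2 fold changes, to 1.004 for Cryab, 1.14 for Hspb1, 1.20 for Hspb6 and 2.39 for Hspb7, with all 7 still called. When genes listed at 0 in all 6 rats were kept in the fit, a setting chosen after seeing the data, limma called 0 of the 7 (7 at an unadjusted p under 0.05) and 0.537% of genes. In each of the 7 genes every I/R rat lay above every sham rat, which was so for 37.2% of genes. The two-sided exact permutation test gave p = 0.1 for each of the 7, the smallest p that 3 rats against 3 allow.

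Hspb1 (ENSRNOG00000023546) was at 96.3, 60.7 and 56.9 FPKM in sham replicates 1 to 3 and at 394, 293 and 267 FPKM in I/R replicates 1 to 3. The groups were well apart, with the lowest I/R rat 2.78 times above the highest sham rat. Hspb1 rose by 2.18 on the log2 scale (limma, standard error 0.28, adjusted p = 0.0022). Of the 10942 genes, 2.48% had a larger one.

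Cryab (ENSRNOG00000010524), the most abundant of the 7 in every rat, was at 1352, 437 and 344 FPKM in the sham rats and at 2957, 2697 and 2289 FPKM in the I/R rats. Sham replicate 1 was far above the other sham rats, and the gap between the groups was the narrowest of the 7, 1.69 times. In limma Cryab rose by 2.16 on the log2 scale (standard error 0.46, adjusted p = 0.0082). Hspb6 (ENSRNOG00000020922) followed the same course at a lower level, with 254, 106 and 79.4 FPKM in sham and 644, 610.4 and 508 FPKM in I/R. Hspb6 rose by 2.18 on the log2 scale (limma, standard error 0.39, adjusted p = 0.0049). Of the other 10941 genes, Hspb6 was the closest to Cryab in its course over the 6 rats (distance 0.28 between their centred log2 values).

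Hspb7 (ENSRNOG00000029079) rose most. It was at 87.8, 34.2 and 22.6 FPKM in sham and at 555, 408 and 298 FPKM in I/R, so that the mean was 8.72 times higher. On the log2 scale the rise was 3.32 (limma, standard error 0.46, adjusted p = 0.0026), and 0.338% of all genes tested exceeded it. Of the 245 genes whose mean log2 level lay within 1 of that of Hspb7, 0 had a larger log2 fold change. For Hspb1 the same count was 20 of 226 genes, for Hspb6 19 of 158 and for Cryab 6 of 25. It was 21 of 763 for Hspb8, 65 of 2383 for Hspb3 and 27 of 3267 for Hspb2. In every case the total includes the member itself. The genes at a like level had median log2 fold changes from 0.48 (around Hspb2) to 1.65 (around Cryab), with 0.996 around Hspb7.

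Hspb8 (ENSRNOG00000022392), the partner of BAG3, was at 25.5, 14.3 and 11.6 FPKM in sham and at 133, 73.2 and 66.0 FPKM in I/R. Replicate 1 was the highest of each group. Hspb8 rose by 2.41 on the log2 scale (limma, standard error 0.36, adjusted p = 0.0031).

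The least abundant members were Hspb3 and Hspb2, whose products form a complex in muscle. Hspb3 (ENSRNOG00000010992) was at 7.22, 3.56 and 5.53 FPKM in sham and at 24.6, 24.7 and 21.8 FPKM in I/R, the tightest I/R group of the 7 (coefficient of variation 7.02%). Hspb2 (ENSRNOG00000051792) was at 4.08, 2.58 and 2.31 FPKM in sham and at 24.7, 15.5 and 15.4 FPKM in I/R. Both were clear of overlap, with log2 fold changes of 2.16 (standard error 0.28, adjusted p = 0.0021) for Hspb3 and 2.60 (standard error 0.29, adjusted p = 0.0011) for Hspb2 (limma). The spans of Hspb2 and Cryab overlap in the RefSeq annotation. Hspb2 had between 0.302% and 0.834% of the FPKM of Cryab in the 6 rats, the strand setting of the counting is not stated, and whether fragments of Cryab reached Hspb2 was not tested.

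**Figure D1:**
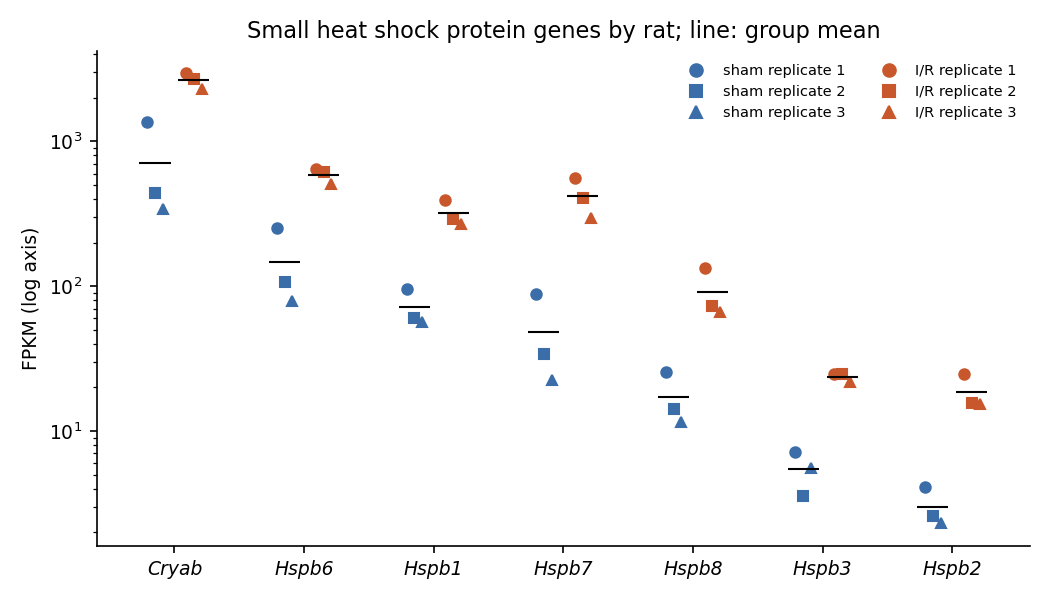
FPKM (log axis) of the 7 small heat shock protein genes in the 3 sham and 3 I/R rats, with a line at each group mean and the genes ordered by their sham mean. The I/R rats lie above the sham rats in every gene, sham replicate 1 is the highest sham rat in all 7, and Hspb7 passes Hspb1 in I/R.

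The order of the levels was the same in the 3 sham rats, namely Cryab, Hspb6, Hspb1, Hspb7, Hspb8, Hspb3 and Hspb2. Between rats, however, the ranges of neighbours overlapped in sham for Hspb6 with Hspb1, Hspb1 with Hspb7, Hspb7 with Hspb8 and Hspb3 with Hspb2, and those of Cryab with Hspb6 and of Hspb8 with Hspb3 did not. The sham means of Hspb1 (71.3 ± 21.8 FPKM, SD, n = 3) and Hspb7 (48.2 ± 34.8 FPKM, SD, n = 3) were within their spread. In I/R, Hspb7 (420.3 ± 129 FPKM, SD, n = 3) stood above Hspb1 (318 ± 66.7 FPKM, SD, n = 3) in each of the 3 rats, again within the spread of the group. Hspb2 (18.5 ± 5.31 FPKM, SD, n = 3) and Hspb3 (23.7 ± 1.66 FPKM, SD, n = 3) changed places in I/R replicate 1 and were within their spread. The I/R ranges of Hspb6 and Hspb7 overlapped too, and those of the other neighbours did not. Cryab and Hspb6 kept the first and second place in all 6 rats.

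Sham replicate 1 stood apart from the other sham rats in these genes. Its level over the mean of sham replicates 2 and 3 was 3.46 times for Cryab, 3.09 times for Hspb7 and 2.74 times for Hspb6, but 1.97 times for Hspb8, 1.67 times for Hspb2, 1.64 times for Hspb1 and 1.59 times for Hspb3. The median of this ratio over all genes tested was 0.913. The summed FPKM of 7 cardiomyocyte markers was 3.08 times and that of 6 smooth muscle markers 3.27 times higher in sham replicate 1, while fibroblast markers were at 0.746 and endothelial markers at 0.935 times. Without sham replicate 1 the log2 fold change of Hspb1 was 2.42, that of Cryab 2.76, that of Hspb6 2.67 and that of Hspb7 3.87.

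Hspb1 was next compared with each relative within the same rat, as the difference of their log2 values, which does not move with the scaling of a library. Against Hspb3, Hspb6 and Cryab the mean difference moved by at most 0.02 with all 6 rats, which for Hspb6 and Cryab rested on sham replicate 1 (−0.25 and −0.35 without it), while Hspb1 fell behind Hspb7 in every I/R rat and, by less, behind Hspb2. The 6 comparisons were tested by two-sided exact permutation, whose smallest p is 0.1 before and was 0.3 after adjustment over the 6, so none could pass 0.05.

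Hspb1 minus Hspb7 was 0.13, 0.83 and 1.33 in sham replicates 1 to 3 and −0.49, −0.48 and −0.16 in I/R replicates 1 to 3. The sign thus turned without overlap, from Hspb1 above Hspb7 to Hspb7 above Hspb1. The change was −1.14 on the log2 scale (exact permutation test, p = 0.1, adjusted p = 0.3), with −1.82 and −0.29 as the extremes over the 9 pairings of an I/R with a sham rat, and −1.45 without sham replicate 1.

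Hspb1 minus Hspb2 was 4.53, 4.51 and 4.56 in sham, the steadiest of the 6 differences, and 3.99, 4.23 and 4.11 in I/R. The groups did not overlap, and the change was −0.42 (exact permutation test, p = 0.1, adjusted p = 0.3) with or without sham replicate 1. Against Hspb8 the change was −0.23 (extremes −0.72 and 0.10, exact permutation test, p = 0.4) and the groups overlapped. Between rats of the same replicate number, however, it was −0.35, −0.08 and −0.27, of 1 sign in all 3 (exact permutation test within numbers, p = 0.25, the smallest that 3 numbers allow).

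For the other relatives the changes were 0.02 against Hspb3 (extremes −0.49 and 0.66), 0.00 against Hspb6 as rounded from −0.0022 (extremes −0.57 and 0.69) and 0.02 against Cryab (extremes −0.60 and 0.90). Each had an exact permutation p of 1. The extremes are wide because the sham rats differed, and they leave room for changes of either sign. Against the mean of all 6 relatives Hspb1 was 1.19 ± 0.30 (SD, n = 3) in sham and 0.89 ± 0.04 (SD, n = 3) in I/R, a change of −0.29 that was within the spread of the sham rats (exact permutation test, p = 0.3). Without sham replicate 1 this change was −0.46.

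**Figure D2:**
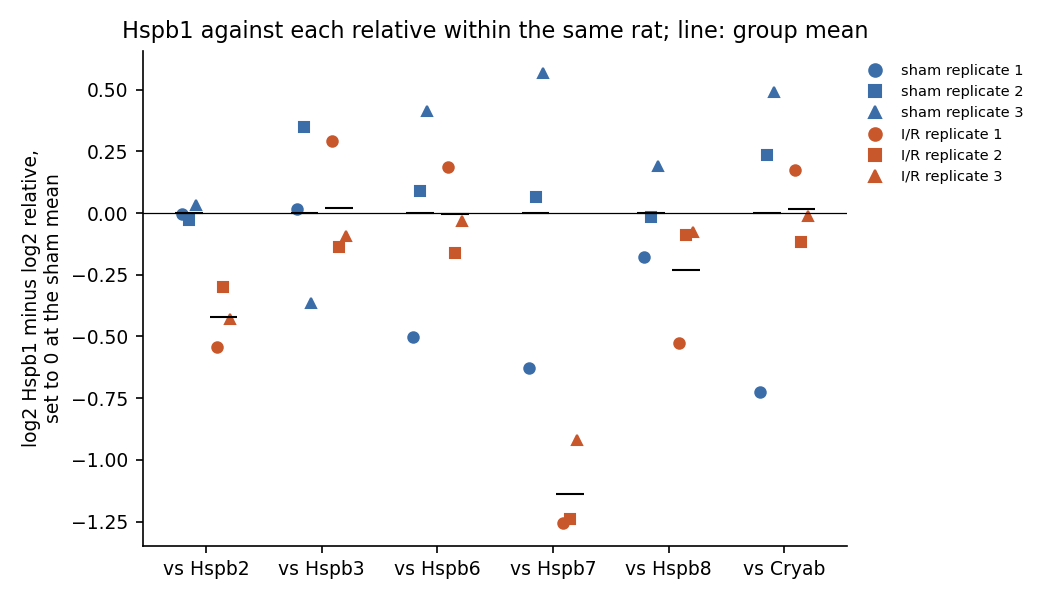
Difference between log2 Hspb1 and the log2 value of each relative in the same rat, shifted so that the sham mean is 0, with a line at each group mean. Against Hspb7 and Hspb2 the I/R rats lie below all sham rats (mean changes −1.14 and −0.42), and in the other 4 comparisons the groups overlap.

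Over all 21 pairs among the 7 genes, the groups did not overlap in 6, and 5 of these 6 involved Hspb7, the exception being Hspb1 with Hspb2. Each of these 6 had an exact permutation p of 0.1, the smallest that 3 rats against 3 allow. The smallest adjusted exact permutation p over the 21 was 0.35. Taken between rats of the same number, a comparison added after seeing the data, 10 of the 21 pairs changed with 1 sign in all 3 numbers. Among them were those 6 and all 6 pairs with Hspb7. Each of the 10 had an exact permutation p of 0.25 within numbers, the smallest that 3 numbers allow. The same counts were not made over pairs of all genes. The 21 pairs share 7 genes and are not independent, so these counts are not a test. Of the 10 pairs, Hspb2 minus Hspb8 was the steadiest, at 0.19, 0.20 and 0.19. Its groups overlapped (extremes −0.15 and 0.53, exact permutation test, p = 0.2, adjusted p = 0.47 over the 21 pairs). Hspb7 was then set against the mean of the other 6, a comparison chosen after its values were seen. It was 0.69, 0.34 and −0.14 in sham and 1.48, 1.40 and 1.11 in I/R, a change of 1.03 without overlap.

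The make-up of the summed small heat shock protein mRNA was computed from the same FPKM. The sum of the 7 genes was 1827, 659 and 522 FPKM in sham and 4731, 4122 and 3466 FPKM in I/R (change in log2 2.25, exact permutation test, p = 0.1). Cryab made up 68.8% ± 4.56 (SD, n = 3) of the sum in sham and 64.7% ± 1.89 in I/R, and Hspb6 15.1% ± 1.11 and 14.4% ± 0.658. Both overlapped between the groups. The share of Hspb1 was 5.27%, 9.21% and 10.9% in sham and 8.32%, 7.12% and 7.72% in I/R. These values overlapped, and the difference of −0.736 percentage points was smaller than the spread of the sham rats (exact permutation test, p = 0.7). Without sham replicate 1 it was −2.33 points, and without sham replicate 3 it was 0.480 points. Hspb7 was the 1 gene of the 7 whose share did not overlap, with 4.81%, 5.19% and 4.32% in sham and 11.7%, 9.91% and 8.60% in I/R. This gain of 5.30 points (exact permutation test, p = 0.1, adjusted p = 0.7 over the 7 genes) was 5.32 points without sham replicate 1.

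**Figure D3:**
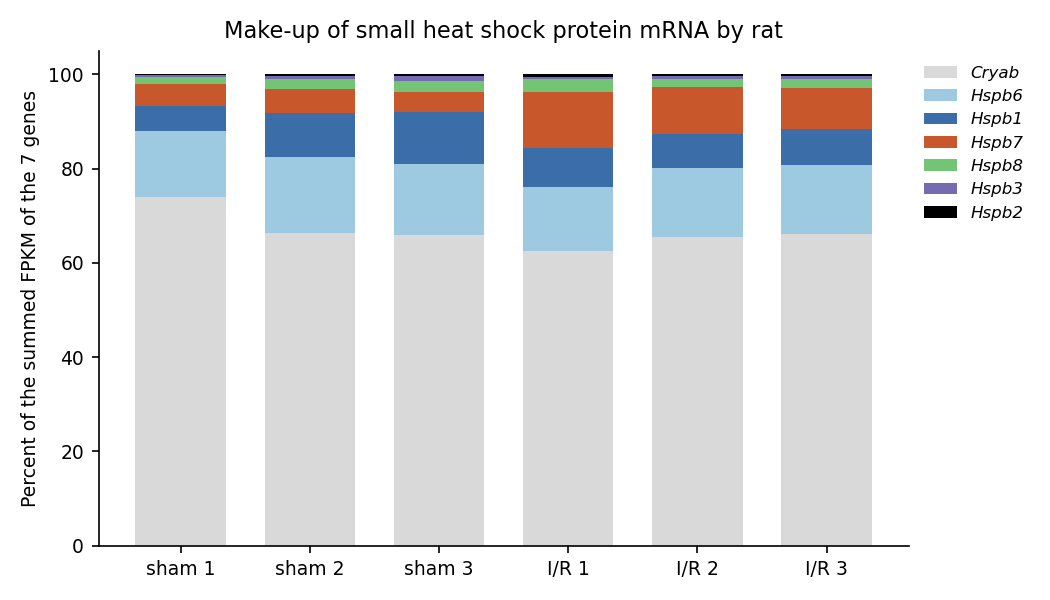
Share of each gene in the summed FPKM of the 7 small heat shock protein genes, in percent, as stacked bars for each rat. The Hspb7 band widens from 4.32 to 5.19% in sham to 8.60 to 11.7% in I/R, while the Hspb1 band lies between 5.27 and 10.9% in sham and between 7.12 and 8.32% in I/R.

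Cardiomyocyte markers moved with the small heat shock protein genes. Of 7 markers tested 6 were higher in I/R, a call made for 25.5% of all genes. The log2 fold changes of the 7 markers ran from 0.82 (Ryr2, not past the threshold) to 3.79 (Actc1), with a median of 2.28. Their summed FPKM ran from 3465 to 11364 in sham and from 23353 to 33681 in I/R. In bulk tissue, fewer cells of a type and less RNA per cell cannot be told apart. Of 7 fibroblast markers 2 were higher (median log2 fold change 0.57), and of 7 endothelial markers 0 passed in limma (2 at an unadjusted p under 0.05, median −0.21). Of 6 smooth muscle markers 0 passed in limma (1 at an unadjusted p under 0.05), with a sum of 68.1 to 273 FPKM in sham and 109 to 305 FPKM in I/R. Skeletal muscle markers summed to at most 4.11 FPKM in any rat, with Myh4 at 0 in all 6. Of 5 neutrophil and monocyte markers tested 2 were higher and 1 lower, and of 3 red blood cell genes 0 passed in limma (1 at an unadjusted p under 0.05).

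Set against the mean log2 value of the cardiomyocyte markers in the same rat, Hspb1 changed by −0.12, Cryab by −0.13, Hspb3 by −0.14, Hspb6 by −0.12, Hspb8 by 0.11 and Hspb2 by 0.30, and the groups overlapped in each. Hspb7 was at −2.91, −3.06 and −3.27 in sham and at −2.02, −1.88 and −2.29 in I/R. All 3 I/R rats lay above all sham rats, a change of 1.02 (1.10 without sham replicate 1). In limma with each sample centred on these markers, Hspb7 was the 1 member of the 7 called higher (adjusted p = 0.021). That call was made for 0.32% of all genes, while every I/R rat lay above every sham rat for 0.512%. These shares come from a fit in which most genes fell, with 8977 of 10942 called lower and a median log2 fold change of −2.01. Without Actc1, the marker with the largest rise, a setting chosen after seeing the data, the change of Hspb7 was 1.27 (adjusted p = 0.0029, limma). Hspb7 was again the 1 of 7 called. Of all genes, 0.393% were called higher and 8315 genes were called lower, with a median log2 fold change of −1.76. In that setting the signs of Hspb1 (0.13), Cryab (0.11), Hspb3 (0.11) and Hspb6 (0.13) turned, and Hspb2 (0.55) and Hspb8 (0.36) no longer overlapped between the groups, as was so for 0.786% of all genes, though limma called neither. The part of cardiomyocyte content in the rise of the 7 genes, Hspb7 included, was not tested.

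**Figure D4:**
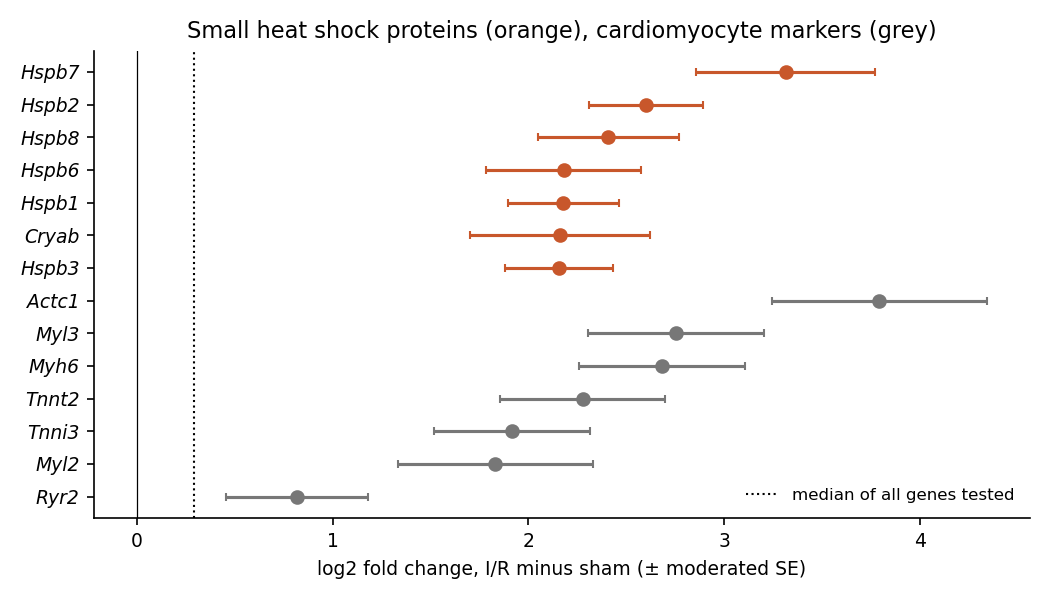
Log2 fold change (I/R minus sham, with the moderated standard error from limma) of the 7 small heat shock protein genes in orange and of 7 cardiomyocyte markers in grey, with a dotted line at the median of all genes tested, 0.29. Hspb1, Hspb3, Hspb6 and Cryab lie between 2.16 and 2.18, close to the marker Tnnt2, and Hspb7 lies at 3.32.

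The remaining small heat shock family genes were scarce in these hearts. Cryaa, the lens alpha-A crystallin, was listed at 0 in all 6 rats, and Hspb9 and Odf1, both known from testis, were at most at 0.353 and 0.0437 FPKM. Hspb11, a gene of intraflagellar transport, was at 1.66 ± 0.378 FPKM in sham and 2.96 ± 1.28 FPKM in I/R (SD, n = 3 each) and did not pass the test (adjusted p = 0.13, limma).

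HSPB8 and BAG3 form, with HSPA8 and the ubiquitin ligase STUB1, a complex that sends damaged filamin to autophagy at the Z-disc. Of the 9 genes listed for it 7 were higher in I/R, with a median log2 fold change of 1.29. That call was made for 25.5% of all genes. Bag3 was at 30.0, 13.6 and 11.9 FPKM in sham and at 116, 76.3 and 68.5 FPKM in I/R, a course like that of its partner Hspb8, and it rose by 2.32 on the log2 scale (limma, standard error 0.37, adjusted p = 0.0035). Flnc, which encodes the client filamin C, had the largest rise (log2 fold change 3.07), from 1.82 ± 0.313 FPKM to 17.7 ± 8.92 FPKM (SD, n = 3 each). Synpo2, a filamin-binding adaptor of BAG3, had a log2 fold change of 1.69. Sqstm1 (0.49) and Hdac6 (0.31) did not pass.

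HSF1 is the transcription factor of the heat shock response. Its own mRNA was at 3.16 ± 0.642 FPKM in sham and 3.70 ± 0.564 FPKM in I/R (SD, n = 3 each; log2 fold change 0.22, adjusted p = 0.48, limma). Of 17 tested genes in the list of HSF1 and heat-inducible chaperones, 11 were higher, beside 25.5% of all genes. The median log2 fold change of the list was 1.11, which is below the value of every small heat shock protein gene. Bag3 and Hspa8 are also in the list of the BAG3 complex. After Bag3, the largest rises were those of the mitochondrial chaperonins Hspe1 (1.65) and Hspd1 (1.62). Besides Hsf1, the genes Hsp90ab1 (0.77), Dnaja1 (0.46), Cacybp (0.25), Chordc1 (−0.0052) and Hsf2 (−0.34) did not pass. The inducible Hspa1a and Hspa1b, and St13, were listed but not found by symbol, so the count and median of the list leave them out.

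HSPB1 is phosphorylated by MAPKAPK2 (MK2), downstream of p38. Of 9 tested kinase genes 3 were higher, beside the 25.5% of all genes with that call, and the list median was 0.47. Mapkapk2 rose from 4.19 ± 0.903 to 17.3 ± 7.63 FPKM (SD, n = 3 each; log2 fold change 1.95, adjusted p = 0.0036, limma). Map2k3, a kinase that activates p38, had a log2 fold change of 1.77 and Mapkapk3 one of 1.38. Mapk14, which encodes p38 alpha, was at 0.12 and did not pass, nor did Mapk11, the p38 beta gene, at −1.24 (adjusted p = 0.065, limma).

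Among 11 genes for filament and Z-disc proteins that small heat shock proteins bind or protect, 8 were higher, beside 25.5% of all genes. The list had a median log2 fold change of 1.61. Actc1 (3.79), Flnc (3.07) and Actn2 (2.46) had the largest rises. Des, the gene of the muscle filament protein desmin, was at 148, 65.0 and 57.0 FPKM in sham and at 437, 207 and 173 FPKM in I/R (log2 fold change 1.61, adjusted p = 0.020, limma). Vim, which encodes the filament of fibroblasts and endothelium, was at 259 ± 35.9 and 235 ± 8.40 FPKM (SD, n = 3 each) and did not pass. This list shares Actc1 with the cardiomyocyte markers and Flnc with the list of the BAG3 complex.

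**Figure D5:**
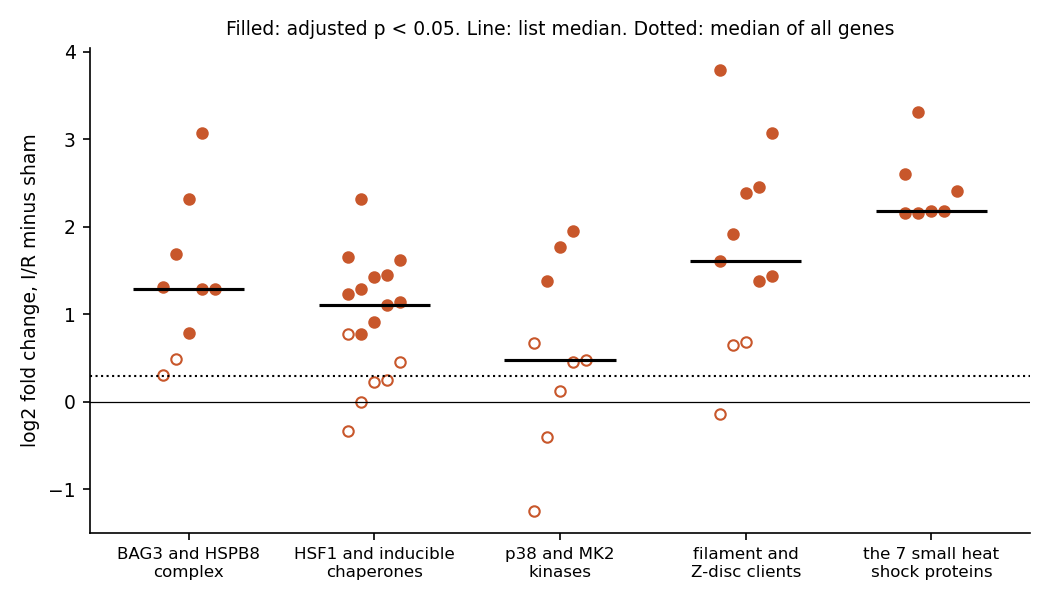
Log2 fold change (I/R minus sham) of each tested gene of 4 lists and of the 7 small heat shock protein genes, filled where the adjusted p was under 0.05 (limma), with a line at each list's median and a dotted line at the median of all genes tested. The list medians are 1.29, 1.11, 0.47 and 1.61, and that of the small heat shock protein genes is 2.18.

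The genes closest to Hspb1 in course, by Euclidean distance between log2 values over the 6 rats centred on each gene's mean, were Sdhc (0.28), Ndufb8 (0.29), Cap2 (0.33), Ppp1r14c (0.33) and Sod2 (0.33). Sdhc and Ndufb8 encode subunits of respiratory complexes, Cap2 an actin-binding protein, Ppp1r14c an inhibitor of protein phosphatase and Sod2 the mitochondrial superoxide dismutase. Sod2, for example, was at 16.3, 13.4 and 9.62 FPKM in sham and at 75.8, 54.9 and 53.9 FPKM in I/R. Among its relatives, Hspb8 was the closest to Hspb1 (place 64 of 10941) and Hspb7 the farthest (place 1976).

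The libraries also differed as a whole. Mitochondrially encoded mRNAs made up 80.1% to 86.2% of the summed FPKM in sham and 61.8% to 71.5% in I/R. After rescaling over the other genes the log2 fold changes of the 7 genes ran from 1.38 to 2.53, and all 7 stayed past the threshold. FPKM give no fragment counts, so the absolute depth is unknown. From the steps of low values, the depth relative to sham replicate 1 was 1.14 to 1.18 in the other sham rats and 0.873 to 0.935 in I/R.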

How the data were processed

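RNA-seq of myocardial tissue from 3 sham and 3 I/R rats was analysed. The authors deposited FPKM values, 1 column per rat, made from stranded total RNA libraries. STAR and HTSeq are named in the submitters' processing notes, and the genome build, the annotation, the strand setting and the total used for scaling are not given in the sources used here. Whether the rats came from separate days is not stated.

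Rows with the same symbol were summed, and log2(FPKM + 0.1) of genes with a mean of at least 0.5 FPKM was tested with limma 3.58.1 in R 4.3.3 (intensity trend, Benjamini-Hochberg adjustment, threshold 0.05). Single values and within-rat differences were compared with two-sided exact permutation tests. On simulated data, limma called 155 of 10942 genes, namely 146 of the 200 that had been shifted by a log2 value of 2 and 9 others. Each gene was simulated independently, so genes that moved together, as muscle genes did in sham replicate 1, were not represented.

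The members, gene lists and tests were chosen with earlier results of these data known. Named genes are the 7 members, Bag3, Hsf1, Mapkapk2 and Cryaa, the 3 called genes of each list with the largest absolute log2 fold change, and the 5 genes closest to Hspb1. Others named, such as Des, Vim, Hspb11, Mapk14, Mapk11 and genes that did not pass, were added after their values were seen. RefSeq (GRCr8) sequences were matched by symbol.

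Replicate numbers come from the labels. Deviations of same-numbered rats from their group means correlated across genes (0.20, 0.12 and 0.12 for numbers 1 to 3), although sham replicate 3 correlated as well with I/R replicate 2 (0.12), so a fit with the number as a replicate block was made beside the reported one.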

Additional observations from a re-analysis of the deposited data

How the results depend on the processing

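The count of 7 of 7 small heat shock protein genes higher in I/R held under other pseudocounts, no filter or one at 5 FPKM, TPM, rescaling without the mitochondrially encoded mRNAs, median centring, quantile normalization, no trend in limma, the highest row of each symbol, a fold threshold, and with each rat left out (7 to 7). Quantile normalization and leaving out sham replicate 2 came closest to losing a call, with a largest adjusted p of 0.048 each, both for Cryab. Over all genes tested the median was 0.29 as deposited, 0.48 in TPM, 0.04 with median centring, −0.02 with quantile normalization and −0.46 without the mitochondrially encoded mRNAs, and the share of calls that were higher was 77.6%, 87.3%, 56.5%, 48.0% and 21.7%. All 7 members stayed above these medians.

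With the replicate block the count was again 7 (largest adjusted p 0.00089, limma) and no call changed. Paired by number, Hspb1 minus the mean of its relatives changed by 0.058, −0.46 and −0.48 (exact permutation test, p = 0.5).

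The count was 1 of 7 after centring on the cardiomyocyte markers, and 1 without Actc1 among them, a setting chosen after seeing the data. Centring on the markers takes the same amount from every gene, and it turned Hspb1 to −0.12, Cryab to −0.13, Hspb3 to −0.14, Hspb6 to −0.12 and the summed FPKM of the 7 genes to −0.048. The median over all genes tested was −2.01 with these markers and −1.76 without Actc1. The count was 0 in limma when 9067 genes listed at 0 in all 6 rats were kept in the fit, also chosen after seeing the data (adjusted p 0.054 to 0.21, 7 of 7 at an unadjusted p under 0.05).

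With each rat left out, the change of Hspb1 against the mean of its relatives lay between −0.46 and −0.18, the change in its share between −2.33 and 0.480 percentage points, and the log2 change of the summed FPKM between 1.89 and 2.80. Quantile normalization gave −0.49 for the first and 1.16 for the last of these, and rescaling without the mitochondrially encoded mRNAs gave 1.46 for the last. Of 140 values of single genes under alternatives, 121 kept direction and call, 15 lost the call and 4 reversed.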
